A study of Mus musculus with 4 samples.

Results

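The genes described here are 36 genes that mark T cells and natural killer (NK) cells or carry out their functions. They were chosen by name, but with earlier results of these data known. They comprise the subunits of the CD3 complex, the co-receptors CD4 and CD8, proximal signalling proteins, and costimulatory and adhesion receptors. Transcription factors, NK receptors, cytotoxic effectors and the products Ccl5 and Ifng complete the set. Of the 36, 31 were matched to an array feature annotated with exactly 1 gene symbol, out of 30142 genes so matched in the whole table. The features of Gata3, Foxp3 and Klra8 carried several symbols, so these genes were given no value, and Lck and Tcf7 were in no row of the annotation used and were not analysed here. Of the 31 genes, 22 lay above the signal floor, a mean log2 signal of 5.82 that 18084 genes passed. The members nearest to the floor were Tbx21 at a mean log2 signal of 5.83 just above it and Themis at 5.74 just below it.

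T cells recognise peptides through a receptor whose signals are carried into the cell by the CD3 chains, and CD4 or CD8 bind the class of antigen-presenting molecule that holds the peptide. NK cells lack this receptor and read the balance of activating and inhibitory receptors. Both NK cells and CD8 T cells kill target cells by releasing perforin and granzymes from granules, and the lung holds resident and recirculating cells of both kinds.

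The lungs came from male C57BL mice that breathed mainstream cigarette smoke or clean air from 10 weeks of age, for 1 h per day on 5 days per week. The 4 groups were 2 weeks of smoke (5 mice, aged 12 weeks at the end), 2 weeks of clean air (5 mice, 12 weeks), 4 weeks of smoke (4 mice, 14 weeks) and 4 weeks of clean air (5 mice, 14 weeks). The lungs of each group were mixed into 1 pool and measured on 1 array, so no group had a replicate pool and the spread between animals cannot be seen. All values below are log2 of the deposited signal, and a difference is a log2 difference, smoke minus clean air of the same duration unless stated. Median signals ran from 58.8 to 61.7 on the 4 arrays.

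Rose and fell are written only of genes that passed limma's test of smoke over both durations at a Benjamini-Hochberg adjusted p of 0.05 across all 18084 genes. An effect written with ± is that fit's log2 smoke effect with its standard error. The test sets the smoke effect against a moderated variance. This joins how far the gene's own smoke difference changed between the durations with a prior variance estimated from all genes fitted. The prior carried 5.38 degrees of freedom, more than the gene's own change. Bcl11b, whose difference changed by -0.0019, thus had a standard error of 0.10, and Gzma, with a change of -0.69, had 0.17. A standard error is therefore not a measure of that gene's own change alone. A difference between 2 pools has no replicate check and is given with no p-value.

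The lung epithelial markers Sftpc, Scgb1a1, Epcam and Cdh1 all lay above the floor, as did the T cell markers Cd3e, Cd3d and Cd3g and the NK markers Ncr1, Klrb1c, Klrd1 and Il2rb. The NK marker Eomes lay below it. The thymus genes Dntt, Rag2 and Ptcra, which mark developing T cells, were below the floor, and only Cd1d1 of that list was above it. Genes of both cell types thus had signal above the floor in the whole-lung pools. The floor is a percentile of the mean signal and not a detection limit. In bulk tissue, fewer cells of a type and less RNA per cell cannot be told apart.

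The 3 CD3 genes and the granule genes are shown first as sequence, because the CD3 neighbours differed in their pool pattern and 4 granule genes shared one. The windows are RefSeq promoters of assembly GRCm38.p6, from 250 bases before to 50 bases after the start site of the promoter entry. They are printed on the strand of the gene. For Cd3g, Gzma, Gzmb and Nkg7 that site is the outer end of the gene, and for Cd3e, Cd3d and Prf1 it lies inside the gene. These 7 genes were chosen after their values were seen. Capitals mark the letters of 3 motifs searched on both strands: TGTGGT (RUNX), CGGAAG (ETS) and GGTGTG (T-box). The 3 motifs stand for transcription factor families with members known to act in T and NK cells. The windows lie at chr9:45009562-45009861 on the minus strand for Cd3e, chr9:44981536-44981835 on the plus strand for Cd3d and chr9:44980382-44980681 on the minus strand for Cd3g. Those of the granule genes lie at chr13:113100932-113101231 on the minus strand for Gzma, chr14:56262285-56262584 on the minus strand for Gzmb, chr10:61297586-61297885 on the plus strand for Prf1 and chr7:43436888-43437187 on the plus strand for Nkg7.
Cd3e: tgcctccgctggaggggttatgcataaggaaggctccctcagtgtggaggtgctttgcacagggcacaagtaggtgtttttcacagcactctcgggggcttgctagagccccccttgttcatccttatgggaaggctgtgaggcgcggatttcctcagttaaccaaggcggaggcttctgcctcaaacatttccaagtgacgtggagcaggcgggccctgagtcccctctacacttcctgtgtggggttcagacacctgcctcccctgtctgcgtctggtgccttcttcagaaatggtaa
Cd3d: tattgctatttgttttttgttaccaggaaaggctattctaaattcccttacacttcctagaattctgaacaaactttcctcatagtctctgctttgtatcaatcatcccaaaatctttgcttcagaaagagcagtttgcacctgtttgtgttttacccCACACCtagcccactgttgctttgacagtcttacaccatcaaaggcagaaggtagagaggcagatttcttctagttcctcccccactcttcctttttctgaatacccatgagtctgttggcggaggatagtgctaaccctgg
Cd3g: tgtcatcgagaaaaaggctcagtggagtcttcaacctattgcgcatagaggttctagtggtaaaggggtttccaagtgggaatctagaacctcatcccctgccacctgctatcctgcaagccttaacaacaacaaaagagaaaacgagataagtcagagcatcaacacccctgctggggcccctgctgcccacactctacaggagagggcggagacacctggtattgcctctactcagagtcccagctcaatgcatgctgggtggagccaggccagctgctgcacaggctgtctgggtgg
Gzma: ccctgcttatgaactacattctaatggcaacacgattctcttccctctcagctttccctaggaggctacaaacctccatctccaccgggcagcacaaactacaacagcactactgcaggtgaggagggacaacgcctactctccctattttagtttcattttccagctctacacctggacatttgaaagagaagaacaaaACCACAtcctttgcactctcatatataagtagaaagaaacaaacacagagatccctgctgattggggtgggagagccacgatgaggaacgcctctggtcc
Gzmb: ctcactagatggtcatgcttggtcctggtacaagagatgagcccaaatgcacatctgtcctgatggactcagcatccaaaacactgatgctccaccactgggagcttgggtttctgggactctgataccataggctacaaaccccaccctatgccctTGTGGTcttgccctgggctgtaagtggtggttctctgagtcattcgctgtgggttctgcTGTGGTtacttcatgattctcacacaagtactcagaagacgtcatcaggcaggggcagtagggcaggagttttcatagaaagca
Prf1: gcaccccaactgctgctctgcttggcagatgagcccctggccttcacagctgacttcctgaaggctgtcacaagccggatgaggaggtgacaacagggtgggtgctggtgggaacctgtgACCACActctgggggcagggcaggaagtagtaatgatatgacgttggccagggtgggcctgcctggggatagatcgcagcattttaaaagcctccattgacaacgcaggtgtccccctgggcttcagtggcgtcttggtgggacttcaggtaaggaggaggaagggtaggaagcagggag
Nkg7: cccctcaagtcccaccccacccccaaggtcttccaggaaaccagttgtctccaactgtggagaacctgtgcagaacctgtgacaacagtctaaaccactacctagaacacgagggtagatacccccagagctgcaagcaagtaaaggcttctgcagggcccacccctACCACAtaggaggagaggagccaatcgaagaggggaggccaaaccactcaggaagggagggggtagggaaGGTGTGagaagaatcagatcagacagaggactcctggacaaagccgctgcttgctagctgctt

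Of the 36 genes, 27 had a promoter entry, and 10 of the 27 (37.0%) held the RUNX letters on either strand, against 18.9% of 27025 genes with an entry. These 10 were Gzma, Gzmb, Prf1, Nkg7, Ncr1, Klrb1c, Klrk1, Lat, Lck and Zap70. Gzmk, the cytotoxic effector not shown as sequence, has an entry and was not among them. The RUNX letters began at position -50 from the start site of the window in Gzma, at -93 and -34 in Gzmb, at -130 in Prf1 and at -83 in Nkg7. The T-box letters began at -92 in Cd3d and at -13 in Nkg7, and they were present in 7 of 27 members (25.9%), against 21.4% of all genes with an entry. The ETS letters were present in 2 of 27 members (7.41%), against 18.8% of all genes with an entry. The windows of Cd3e and Cd3g held none of the 3 motifs. A match describes the letters of the window and is not evidence of binding.

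The first comparison asked whether smoke changed the T and NK cell genes over both durations. None of the 22 members above the floor passed limma, where 208 of 18084 genes rose (1.15%) and 57 fell (0.315%). An unadjusted p under 0.05 was found for 3 members, Cd3e, Cd4 and Cd2, and the adjusted p of the 22 ran from 0.137 to 0.999. The effects of these 3 were also the most positive of the 22, and only Cd247, Cd8a, Cd8b1, Cd28, Gzmb and Nkg7 had an effect below 0. When only the 12583 genes annotated as protein coding were fitted, these 3 passed with a positive effect, with limma adjusted p of 0.00853 for Cd3e, 0.00899 for Cd4 and 0.0248 for Cd2, as did 4.49% of the genes in that fit. After median centring over all features Cd3e passed in limma (adjusted p = 0.00369), as did 2.07% of all genes with a positive effect. In that fit the prior had infinite degrees of freedom, so every gene had the same standard error of 0.155. The change of the Cd3e difference between durations thus had no weight of its own there. When arrays were centred over the genes fitted, Cd3e did not pass (adjusted p = 0.318). The standard errors of the members ran from 0.10 to 0.17, and only 4 arrays stand behind each value. The plot of smoke effects with their intervals shows this order.

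**Figure D1:**
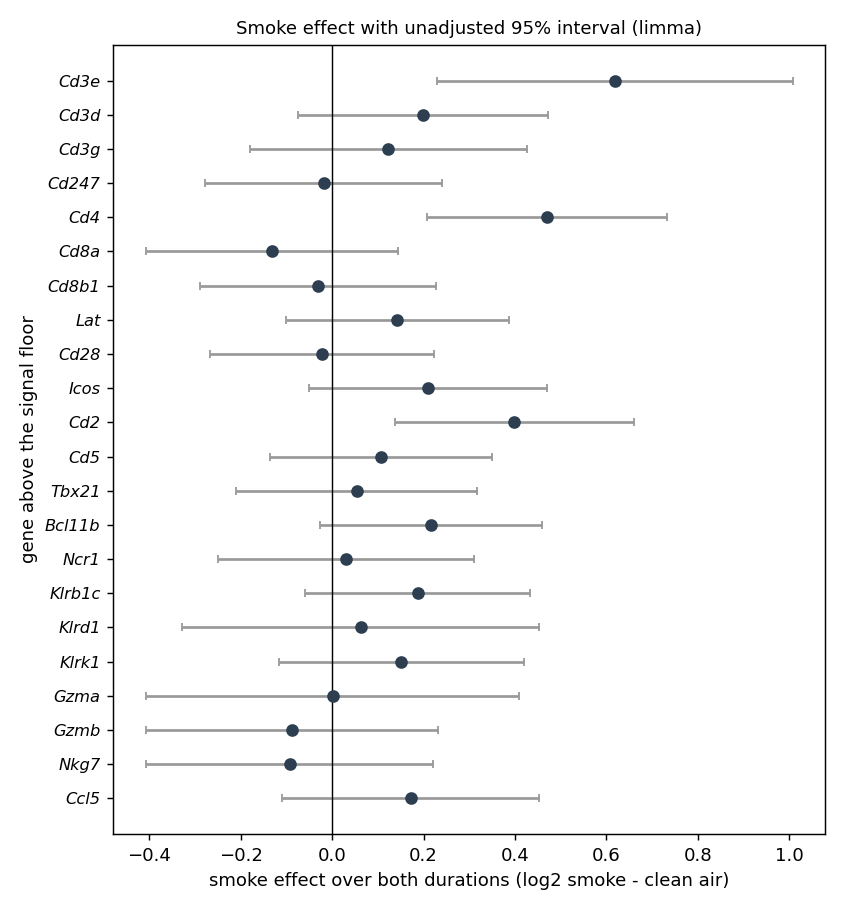
Smoke effect over both durations for the 22 T and NK cell genes above the signal floor, as log2 smoke minus clean air on the x axis, 1 gene per line grouped by role. Points are limma estimates from 4 pools and bars are unadjusted 95% intervals. The intervals of Cd3e, Cd4 and Cd2 lie above 0 and those of the other 19 genes include it.

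Taken by duration, the median difference of the 22 members was 0.14 at 2 weeks and 0.10 at 4 weeks, beside 0.0056 and -0.017 for all genes above the floor. Cd3e was the only member at least 1.5-fold higher in smoke at 2 weeks, where 1.82% of all genes were, and 0 members were as much lower, where 1.22% of all genes were. At 4 weeks 0 members were 1.5-fold higher and 0 were 1.5-fold lower, against 2.53% and 1.5% of all genes. Between the clean-air pools, the 4-week over the 2-week pool, Cd3e was again the only member at least 1.5-fold higher (1.85% of all genes), and 0 members were as much lower (2.25% of all genes). The clean-air comparison uses the same pools as both smoke comparisons. Among 22 members, background shares of this size correspond to 0 or 1 gene, so these counts do not set the members apart.

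The order of the pools was counted next. In 9 of the 22 (40.9%) both smoke pools lay above both clean-air pools, which held for 15.7% of all genes. These were Cd3e, Cd3d, Lat, Cd5, Cd2, Icos, Klrb1c, Klrk1 and Bcl11b. After median centring 7 of the 9 kept this order and after cyclic loess 8 did. Both smoke pools lay below both clean-air pools in 0 of the 22, against 16.8% of all genes. Smoke was higher at both durations in 11 of the 22 (50%), against 27.2% of all genes. Smoke was higher at 2 weeks and lower at 4 weeks in 7 of the 22 (31.8%), against 24.2% of all genes, and these were Cd8a, Cd8b1, Ncr1, Klrd1, Gzma, Gzmb and Nkg7. After median centring the members higher at both durations were 9, against 23.7% of all genes, and those higher at 2 weeks and lower at 4 weeks were 9, against 37.8% of all genes. The 9 genes with both smoke pools above include 2 CD3 chains, the receptors Cd2, Cd5 and Icos, and 2 NK receptors. The 7 genes named before are both CD8 chains, 2 NK receptors and 3 granule genes. Their share of 31.8% lay near the 24.2% of all genes, so this count does not set the members apart. The shares carry no test, since the members were chosen with earlier results known.

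**Figure D2:**
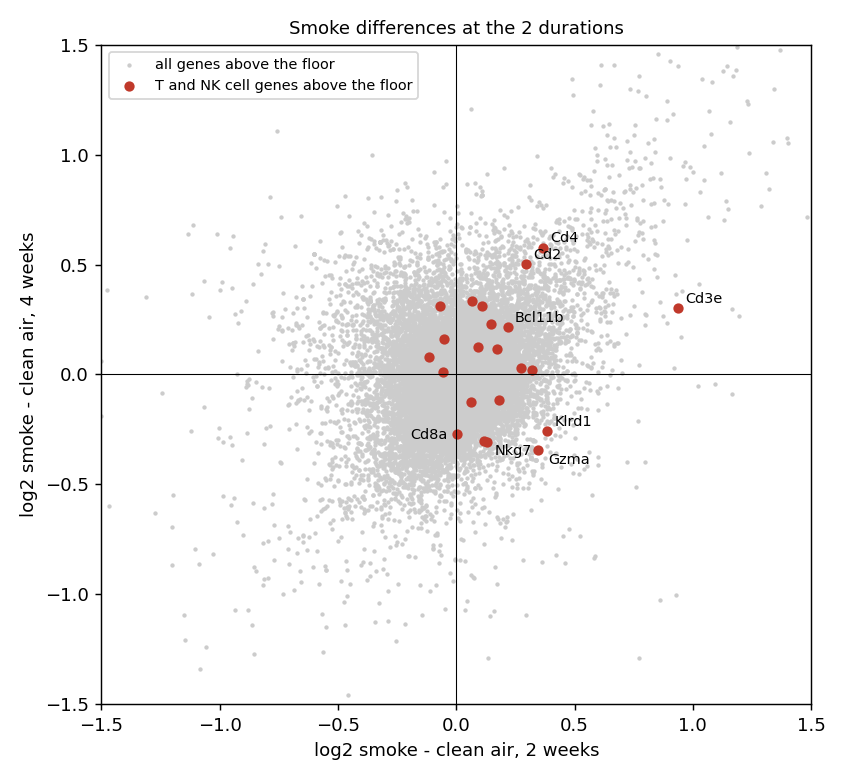
Smoke minus clean-air log2 difference at 2 weeks (x axis) and at 4 weeks (y axis) for all genes above the floor (grey) and the 22 T and NK cell genes (red), 1 point per gene, with 89 genes outside the axes. Cd4, Cd2 and Cd3e lie at the upper right, and Gzma, Klrd1 and Nkg7 lie in the lower right, higher at 2 weeks and lower at 4 weeks.

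Cd3e, the epsilon chain of CD3, had a log2 signal of 8.42 in the 2-week smoke pool, against 7.48 in the 2-week clean-air pool. At 4 weeks it had 8.66 in the smoke pool, against 8.36 in the clean-air pool. The 2-week clean-air pool was thus the low one, and the other 3 pools lay within 0.30 of each other. Smoke was 1.92-fold higher at 2 weeks and 1.23-fold higher at 4 weeks, and the 4-week clean-air pool was 1.85-fold above the 2-week clean-air pool. The fitted effect was 0.62 ± 0.16 (95% interval 0.23 to 1.01, adjusted p = 0.184). Of the within-duration differences, the 0.30 at 4 weeks does not use the low clean-air pool and the 0.94 at 2 weeks does.

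The other CD3 chains did not have the low value of that pool. Cd3d, the delta chain, had 6.46 in the 2-week smoke pool, against 6.39 in its clean-air pool, and 6.66 in the 4-week smoke pool, against 6.33 in its clean-air pool. Cd3g, the gamma chain, had 7.36 in the 2-week smoke pool, against 7.43, and 7.48 in the 4-week smoke pool, against 7.17. For both, the 4-week smoke pool was the highest, and their 4-week differences of 0.33 and 0.31 were close to the 0.30 of Cd3e. Their fitted effects were 0.20 ± 0.11 and 0.12 ± 0.13, with adjusted p of 0.613 and 0.828. The 3 genes lie within 40.1 kb of each other at chr9:44969572-45009663 (GRCm38.p6), with 1.34 kb between Cd3g and Cd3d and 11.7 kb between Cd3d and Cd3e. Cd247, the zeta chain, which is encoded on chromosome 1, had an effect of -0.02 ± 0.11 and differed by no more than 0.12 between any pair of pools.

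**Figure D3:**
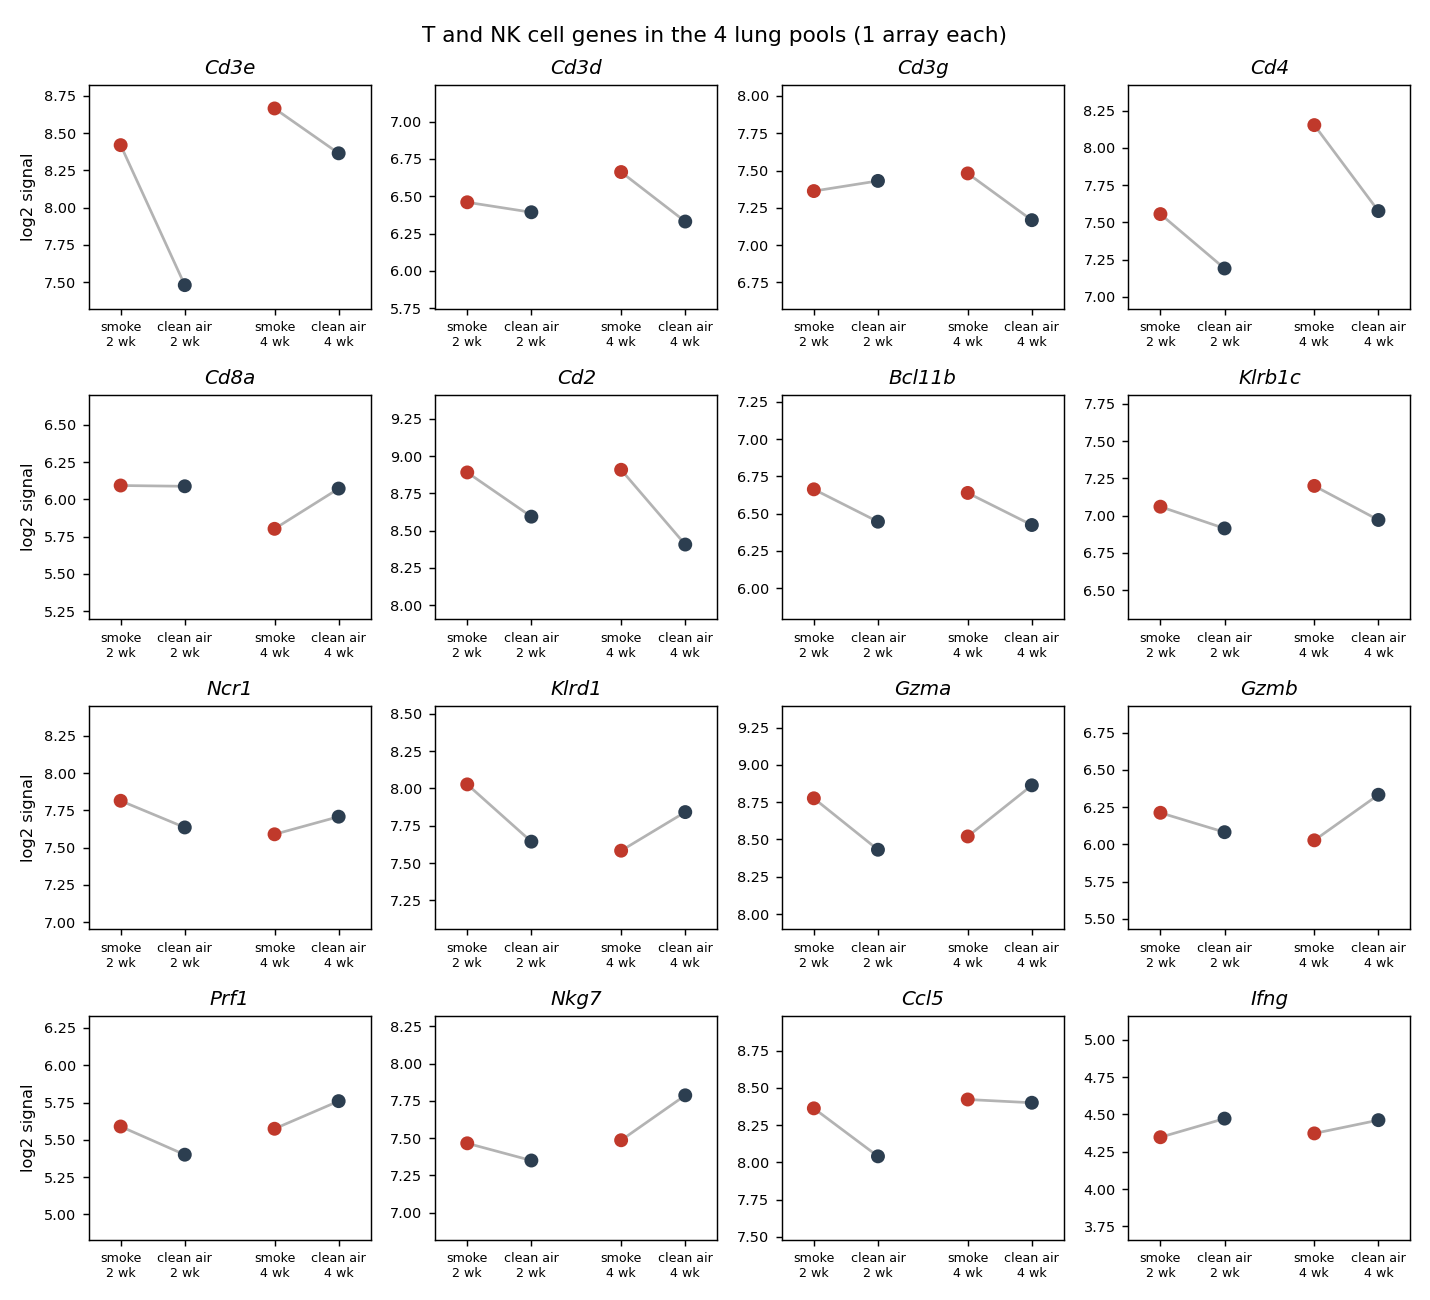
log2 signal (y axis, a span of 1.5 in every panel) of 16 T and NK cell genes in the 4 pools (x axis), smoke in red to the left of clean air in dark blue, with a line joining the pools of 1 duration. Each point is 1 pool on 1 array, with no error bar. Cd3e is low in the 2-week clean-air pool alone, Cd4 and Cd2 are higher in smoke at both durations, and Gzma, Gzmb, Prf1 and Nkg7 are highest in the 4-week clean-air pool.

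Among the co-receptors, Cd4 and the CD8 chains had different patterns. Cd4, the co-receptor of helper T cells that is also present on some myeloid cells, had 7.56 in the 2-week smoke pool, against 7.19 in its clean-air pool. At 4 weeks it had 8.15 in the smoke pool, against 7.58 in the clean-air pool. The 4-week smoke pool was the highest, while the 4-week clean-air pool was level with the 2-week smoke pool, so the groups overlapped. Smoke was 1.29-fold higher at 2 weeks and 1.49-fold higher at 4 weeks, and the effect was 0.47 ± 0.11 (95% interval 0.21 to 0.73, adjusted p = 0.137).

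Cd8a, the alpha chain of CD8, had 6.09 in the 2-week smoke pool, against 6.09 in its clean-air pool, and 5.80 in the 4-week smoke pool, against 6.07 in its clean-air pool. Only the 4-week smoke pool stood below the other 3. Cd8b1, the beta chain found on cytotoxic T cells, had 7.13 in the 2-week smoke pool, against 7.07, and 6.81 in the 4-week smoke pool, against 6.94. It was likewise lowest in the 4-week smoke pool. Their effects were -0.13 ± 0.11 (95% interval -0.41 to 0.14) for Cd8a and -0.03 ± 0.11 for Cd8b1, with adjusted p of 0.777 and 0.967. The genes are neighbours on chromosome 6, 35.9 kb apart.

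Of the costimulatory and adhesion receptors, Cd2, an adhesion receptor of T and NK cells, had the most positive effect. It had 8.89 in the 2-week smoke pool, against 8.59 in its clean-air pool, and 8.91 in the 4-week smoke pool, against 8.41 in its clean-air pool. Both smoke pools lay above both clean-air pools, by 1.23-fold at 2 weeks and 1.42-fold at 4 weeks within a duration. The effect was 0.40 ± 0.11 (95% interval 0.14 to 0.66, adjusted p = 0.204), the mean of differences of 0.30 at 2 weeks and 0.50 at 4 weeks. Icos, an inducible costimulator of activated T cells, had differences of 0.11 at 2 weeks and 0.31 at 4 weeks. Cd5, a receptor that dampens T cell receptor signals, had differences of 0.09 and 0.12. Cd28, the main costimulatory receptor of naive T cells, had a spread of 0.10 over all pools, the smallest of the 22. Ctla4, the inhibitory counterpart of Cd28, and Cd6, a relative of Cd5, lay below the floor and were not tested.

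Of the signalling genes, Lat, the adaptor that links the receptor to downstream enzymes, had 7.84 in the 2-week smoke pool, against 7.67, and 7.95 in the 4-week smoke pool, against 7.84. Its effect was 0.14 ± 0.10. Zap70, the kinase recruited to the phosphorylated receptor, and Themis, a regulator of T cell selection in the thymus, were below the floor. Their differences were -0.12 and -0.0052 for Zap70 and 0.11 and -0.14 for Themis, at 2 and 4 weeks.

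Among the transcription factors, Bcl11b, which maintains T cell identity, had 6.66 in the 2-week smoke pool, against 6.45 in its clean-air pool. At 4 weeks it had 6.64 in the smoke pool, against 6.42 in the clean-air pool. Its smoke difference was 0.22 at each duration, and the clean-air pools differed by -0.02, which moved to 0.03 after cyclic loess. The effect of 0.22 ± 0.10 did not pass (adjusted p = 0.495). Tbx21, which encodes T-bet and directs type 1 helper and NK cell programmes, had 5.78 in the 2-week smoke pool, against 5.84, and 5.94 in the 4-week smoke pool, against 5.78. Its effect was 0.05 ± 0.11 (95% interval -0.21 to 0.32, adjusted p = 0.931). Eomes, a T-box factor related to T-bet, was below the floor with differences of 0.03 and -0.04.

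Some NK receptors were higher in smoke at both durations and others were not. Ncr1, the activating receptor NKp46, had 7.81 in the 2-week smoke pool, against 7.64 in its clean-air pool, and 7.59 in the 4-week smoke pool, against 7.71 in its clean-air pool. The pools of the groups overlapped, and the effect was 0.03 ± 0.12 (95% interval -0.25 to 0.31, adjusted p = 0.971). Klrd1, which encodes the CD94 partner of the NKG2 receptors, had 8.03 in the 2-week smoke pool, against 7.64, and 7.58 in the 4-week smoke pool, against 7.84. It was highest in 2-week smoke and lowest in 4-week smoke, with differences of 0.38 and -0.26. Klrk1, the activating receptor NKG2D, lies 11.5 kb from Klrd1 on chromosome 6 and had differences of 0.27 and 0.03, the last of which turned to -0.03 after median centring. Klrb1c, a lectin-like receptor of NK cells, had differences of 0.15 and 0.23. Klrg1, a receptor of mature NK and effector T cells, was below the floor, with 5.46 in the 2-week smoke pool, against 5.40, and 5.82 in the 4-week smoke pool, against 5.36.

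The granule genes were ordered in another way. Gzma, granzyme A, had 8.78 in the 2-week smoke pool, against 8.43 in its clean-air pool, and 8.52 in the 4-week smoke pool, against 8.86 in its clean-air pool. Smoke was 1.27-fold higher at 2 weeks and 1.27-fold lower at 4 weeks, and the 4-week clean-air pool was 1.35-fold above the 2-week one. The fitted effect was 0.0011 ± 0.17 (95% interval -0.41 to 0.41, adjusted p = 0.999), and its sign turned after median centring. Such opposite differences cancel in a fit over both durations, so this value describes the mean and not either duration.

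Gzmb, granzyme B, had 6.21 in the 2-week smoke pool, against 6.08, and 6.03 in the 4-week smoke pool, against 6.33. Prf1, the pore-forming perforin, lay below the floor and had 5.59 in the 2-week smoke pool, against 5.40, and 5.57 in the 4-week smoke pool, against 5.76. Nkg7, a granule membrane protein, had 7.47 in the 2-week smoke pool, against 7.35, and 7.49 in the 4-week smoke pool, against 7.79. In all of Gzma, Gzmb, Prf1 and Nkg7 the 4-week clean-air pool was the highest of the 4. Of 31 measured members, 9 of which lay below the floor, 5 were highest in that pool, the fifth being Themis. Another 14 were highest in 4-week smoke, 8 in 2-week smoke and 4 in 2-week clean air. The share of all genes highest in each pool was not counted, so these counts do not set the members apart. The directions of Gzma, Gzmb, Prf1 and Nkg7 within each duration were the same after median centring and cyclic loess. Gzmk, granzyme K, was below the floor, and its differences of -0.08 and 0.16 ran the other way.

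**Figure D4:**
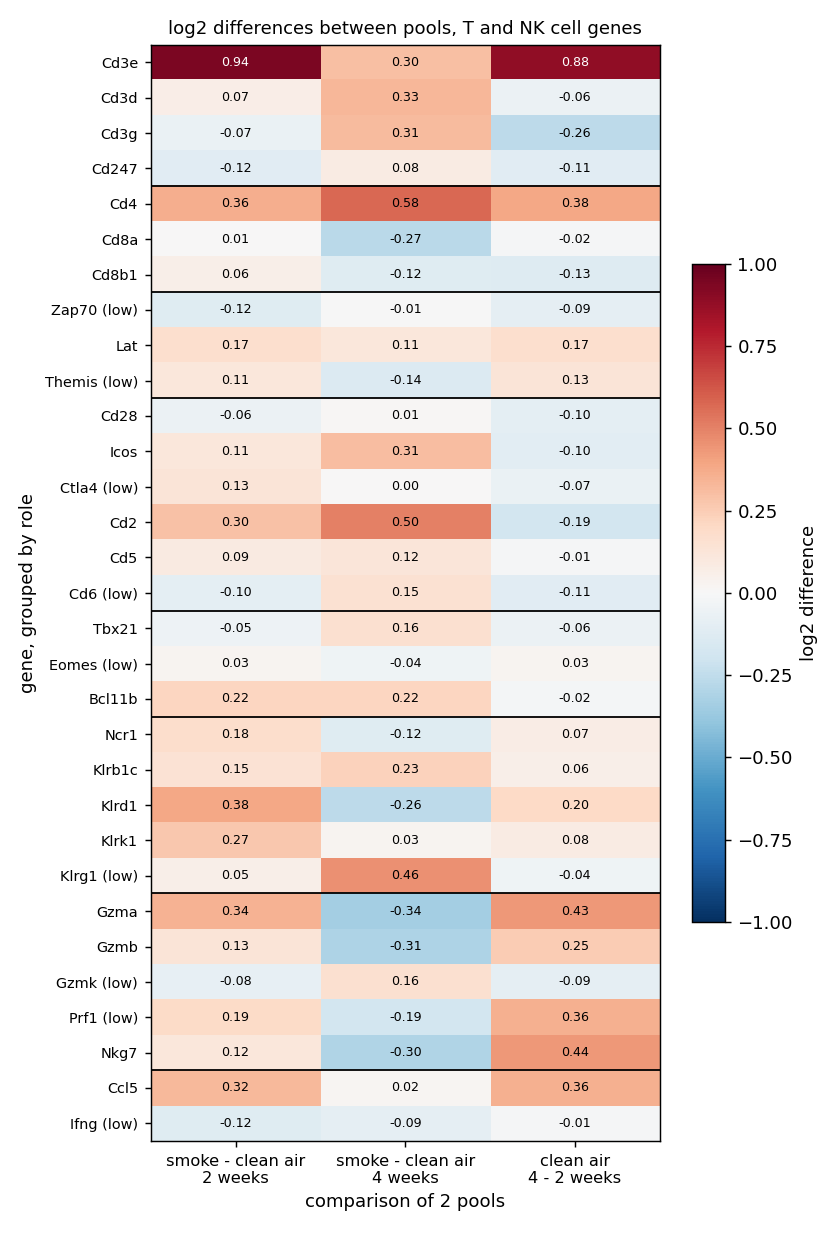
log2 differences between pools (colour, with the value printed) for the 31 measured T and NK cell genes in rows, grouped by role with black lines between roles. The columns are smoke minus clean air at 2 weeks, smoke minus clean air at 4 weeks, and the 4-week minus the 2-week clean-air pool, and (low) marks the 9 genes below the signal floor. Cd3e has 0.94, 0.30 and 0.88, and Gzma has 0.34, -0.34 and 0.43.

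The 4-week clean-air pool also stood apart in the signal of neutrophil markers. The summed signal of the 6 markers (S100a8, S100a9, Ly6g, Retnlg, Csf3r and Mmp9) was 2239 in the 2-week smoke pool, against 2360 in its clean-air pool, and 1715 in the 4-week smoke pool, against 4399 in its clean-air pool. At 4 weeks the differences of the 6 genes ran from -2.05 for S100a9 to -0.04 for Ly6g. None of the 6 passed limma, and 2 had an unadjusted p under 0.05. The summed signal of the 5 NK markers was 950 and 879 in the 2-week and 4-week smoke pools, against 823 and 925 in the clean-air pools of those durations, and that of the 5 granule genes was 762 and 687, against 645 and 846. The part of these differences between pools in the granule gene pattern was not tested.

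Of the secreted products, Ccl5, a chemokine made by T and NK cells among others, had 8.36 in the 2-week smoke pool, against 8.04 in its clean-air pool. At 4 weeks it had 8.42 in the smoke pool, against 8.40 in the clean-air pool, a difference whose sign turned after median centring. Like Cd3e, Cd4, Lat, Klrb1c, Klrk1, Gzma, Prf1 and Nkg7, it was lowest in the 2-week clean-air pool. Its difference was 0.32 at 2 weeks and 0.02 at 4 weeks. The effect over all 4 pools was 0.17 ± 0.12 (95% interval -0.11 to 0.45, adjusted p = 0.694). Ifng, the interferon of type 1 responses, had 4.35 in the 2-week smoke pool, against 4.47, and 4.37 in the 4-week smoke pool, against 4.46, all below the floor. The 9 members below the floor had mean log2 signals of 4.41 to 5.74, with differences of -0.12 to 0.19 at 2 weeks and -0.19 to 0.46 at 4 weeks, and at that signal a difference in transcript may not show.

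The summed signal of the 3 of 7 T cell markers that had a value was 595 in the 2-week smoke pool, against 435 in its clean-air pool, and 686 in the 4-week smoke pool, against 554 in its clean-air pool. The higher 2-week sum was that of Cd3e alone, with differences of 0.94 for Cd3e, 0.07 for Cd3d and -0.07 for Cd3g. At 4 weeks the differences of the 3 genes ran from 0.30 to 0.33. Of 6 macrophage markers, 5 were higher in smoke at both durations, and Siglecf differed by -0.13 at 2 weeks and 0.13 at 4 weeks. The summed signal of the 6 markers was 19291 in the 2-week smoke pool, against 8744, and 30577 in the 4-week smoke pool, against 9442, and Cd68, Marco, Itgax and Mrc1 rose (Mrc1 not after cyclic loess). The summed signal of the 5 B cell markers was 2093 and 1547 in the smoke pools, against 2002 and 1858. The part of macrophages or other cells in the values of Cd4 and Cd2 was not tested.

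Genes that act on T and NK cells from outside, or that share pathways with the members, were read from lists of known genes. These lists were chosen with earlier results of these data known, so their counts, here and below, carry no test. Over all 18084 genes 1.15% rose and 0.315% fell, which is the background for each list. Of 12 chemokines and cytokines above the floor, 5 rose, 0 fell and 7 did not pass. Ccl17, a ligand of the T cell chemokine receptor CCR4, had 12.46 in the 2-week smoke pool, against 9.68, and 13.21 in the 4-week smoke pool, against 10.01. Ccl22, the other CCR4 ligand, rose by 1.65 ± 0.10, Csf2, a growth factor of myeloid cells, by 1.61 ± 0.10, and Ccl3, an inflammatory chemokine, by 1.70 ± 0.15. Cxcl9, a ligand of CXCR3 named here after its value was seen, rose by 1.26 ± 0.11. Its clean-air pools, at 5.15 and 5.39, lay below the floor of 5.82. Cxcl9 thus entered the fit only through its smoke pools, at 6.32 and 6.74. Ccl3 no longer passed after cyclic loess. The receptors Ccr4, Ccr6 and Ccr8 lay below the floor, and the effect of Cxcr3 was -0.05 ± 0.10. The T cell cytokines Il2, Il4, Il5, Il13, Il17a, Il21, Il22 and Il10 were all below the floor.

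Of 11 checkpoint and costimulation genes, Havcr2, Cd80, Cd86 and Tnfrsf9 rose, 0 fell and 7 did not pass. Tnfrsf9 also entered the fit only through its smoke pools, at 6.10 and 6.46. Its clean-air pools, at 5.47 and 5.48, lay below the floor. Havcr2, which encodes TIM-3, was 1.13 ± 0.10 higher in smoke, and it alone of the 4 also passed after cyclic loess. Cd80 and Cd86, ligands of Cd28 and Ctla4 on antigen-presenting cells, rose by 0.84 ± 0.13 and 0.71 ± 0.11. Among 12 further genes of T cell receptor signalling, the adaptor Lcp2 and the protease Malt1 rose, 0 fell and 10 did not pass. Among 11 homing and memory genes, Cd44 and Itgae rose, S1pr1 fell by 0.71, and 8 did not pass. None of Lcp2, Malt1, Cd44, Itgae and S1pr1 passed after cyclic loess. All of them are also expressed by cells other than T and NK cells.

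None of 17 other NK receptors and effectors passed limma, with 0 at an unadjusted p under 0.05, and none of 13 other transcription factors did, with 2 at that level. Of 5 cell cycle genes, Mki67, Top2a, Kif11 and Tpx2 rose and 1 did not pass, and none of the 4 passed after cyclic loess. Of 5 genes of gamma-delta T cells and innate lymphoid cells, Id2 rose, and it did not pass after cyclic loess. The median smoke effect was -0.05 over the 17 NK genes and 0.07 over the 13 transcription factors, beside 0.12 over the 22 members. When arrays were centred over the genes fitted, Cd68 and Ccl17 alone of the genes said here to have risen or fallen still passed. The medians of all lists are plotted by comparison.

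**Figure D5:**
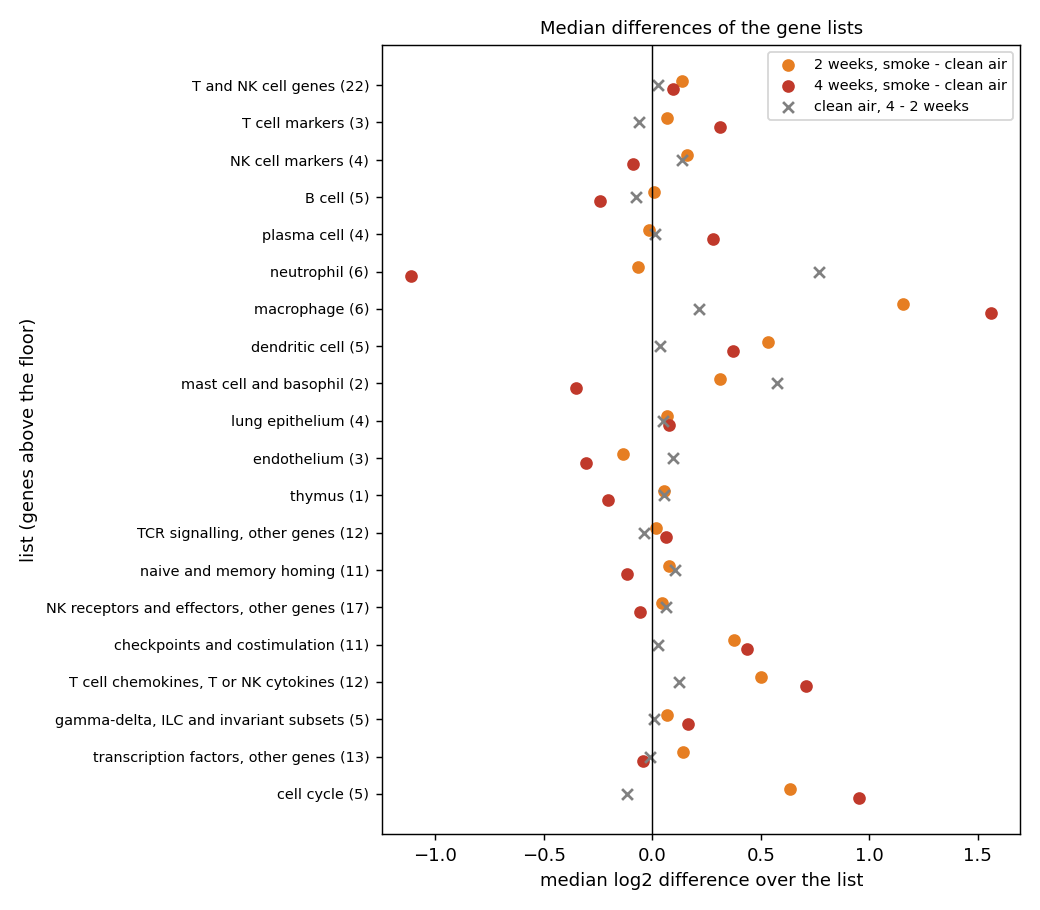
Median log2 difference (x axis) of each gene list over its members above the floor, with their number in brackets (y axis): smoke minus clean air at 2 weeks (orange), smoke minus clean air at 4 weeks (red) and the 4-week minus the 2-week clean-air pool (grey crosses). The T and NK cell genes lie at 0.14, 0.10 and 0.02, the macrophage markers at 1.15, 1.56 and 0.22, and the neutrophil markers at -0.06, -1.11 and 0.77.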

How the data were processed

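Per the labels, the RNeasy Mini Kit was used for total RNA of the 4 mixed lung pools and the GeneChip WT PLUS kit for labelling, and each pool was hybridised to 1 array. The authors deposited linear intensity values. The submitters' processing notes name RMA and version 1.4.1 of Affymetrix Expression Console. Since RMA brings all arrays to one distribution, a shift shared by all genes of a pool would be removed. The values ran from 4.93 to 845602, and 541 to 581 features on each array exceeded 65535, where a 16-bit scan ends. Neither the base of the linear scale nor the genome build behind the array is given in the sources used here. If the base was e, the log2 differences would shrink by a factor of 0.69.

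Of 65956 features, 30604 carried 1 gene symbol, 2146 carried several and 33206 were not listed in the annotation used. Symbols were updated by Entrez ID with RefSeq tables of GRCm38.p6, which matched 22818 of the 30604. The feature with the highest mean was taken for the 355 genes with more than 1 feature, none of them a T or NK cell gene described here. Genes above the 40th percentile of mean log2 signal were kept. The fit used limma 3.58.1 in R 4.3.3 (lmFit and eBayes, 2-sided) with terms for smoke and duration, which leaves 1 residual degree of freedom and a prior of 5.38 degrees of freedom. Differences between 2 pools were counted at 1.5-fold. Simulated data with known changes served to test the limma fit, not these counts. Tables were handled with Python 3.11.15 and pandas 2.3.3.

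The T and NK cell genes and the other lists were chosen with earlier results of these data known. Values in all pools were given for every member at least 1.5-fold different in any pair of pools or passing the fit, and for Cd3e, Cd4, Cd8a, Tbx21, Ncr1, Gzma, Prf1, Ccl5 and Ifng whatever their values. Values of further members were added after they were seen. From other lists at most the 4 genes with the largest mean smoke difference were named, except for receptors, cytokines and markers named after their values were seen. Alternatives covered the signal floor, the scaling, an added offset of 16, protein-coding genes only, the duration term, an intensity trend in the prior, the fold limit, the mean of all features of a gene and each pool left out together with the duration term.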

Additional observations from a re-analysis of the deposited data

Results flagged for a closer look

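For 2 of the 22 T and NK cell genes above the floor, the smoke difference had opposite signs at the 2 durations and the differences lay at least 1.5-fold apart. For Klrd1 the difference at 4 weeks minus that at 2 weeks was -0.64, with smoke minus clean air at 0.38 at 2 weeks and -0.26 at 4 weeks. For Gzma it was -0.69, with 0.34 at 2 weeks and -0.34 at 4 weeks. With 1 pool in each group these changes between durations were not tested. Among all genes above the floor 783 of 18084 (4.33%) met the same condition, beside 2 of 22 (9.09%) here.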

How the results depend on the processing

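The limit of these values is the number of arrays: 1 pool per group, with no replicate and no detection value per feature. Over the fit's alternatives 0 of the members fitted passed with a negative effect, and 0 with a positive one except for 1 (Cd3e, effect 0.61) after median centring over all features and 3 (Cd3e 0.62, Cd4 0.47 and Cd2 0.40) with protein-coding genes only. Counts over all genes moved further. Beside 208 rising and 57 falling, 116 passed as lower with the floor at the 60th percentile, 375 as higher and 210 as lower after median centring, 64 and 8 after cyclic loess, 565 and 319 with protein-coding genes only, and 0 and 0 without the duration term (1163 genes at an unadjusted p under 0.05 in limma). Centring over the genes fitted, chosen after seeing the data, gave 8 rising and 0 falling (2034 at an unadjusted p under 0.05). Leaving out each pool also meant dropping the duration term, since no residual degree of freedom is left with it, and gave 0 to 25 rising and 0 to 9 falling genes, where the lone pool of a group was assumed to vary like the others. The share of the pool and of the dropped term in that shift cannot be told apart. The degrees of freedom of the variance prior also moved with the setting. They were 5.38 in the main fit, 7.09 with the floor at the 60th percentile and 12.2 with protein-coding genes only. After median centring over all features they were infinite, after cyclic loess 3.64, and when centred over the genes fitted 3.3. The part of the prior in the other shifts was not tested. At 1.3-fold, 2 of 22 members were higher at 2 weeks (4.55% of all genes), 2 at 4 weeks (6.7%) and 4 between the clean-air pools (6.12%). At 2-fold 0 were higher at 2 weeks (0.52%) and 0 between the clean-air pools (0.282%), and after cyclic loess 1 was at least 1.5-fold higher at 4 weeks (2.57%). The Gzma effect of 0.0011 turned to -0.0063 after median centring and to -0.0055 when centred over the genes fitted. In the fits without 1 pool and without the duration term, or after centring, the smoke effect took the other sign in 12 of 22 members, with ranges over the pools left out of -0.0078 to 0.35 for Ccl5, -0.075 to 0.038 for Cd247, -0.071 to 0.026 for Cd28, -0.0090 to 0.25 for Cd3g, -0.28 to 0.013 for Cd8a and -0.19 to 0.13 for Cd8b1. The others ran -0.21 to 0.22 for Gzma, -0.21 to 0.038 for Gzmb, -0.16 to 0.28 for Klrd1, -0.082 to 0.14 for Ncr1, -0.31 to 0.13 for Nkg7 and -0.024 to 0.13 for Tbx21. The other 10 members kept their direction in every setting in which they were fitted, Cd3e between 0.18 and 1.06. The median difference of all genes was -0.073 at 4 weeks and 0.046 at 2 weeks after median centring, and -0.017 and 0.0056 without it.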
